A study of Mus musculus with 6 samples.

Results

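Spic encodes SPI-C, a transcription factor of the Ets family, and was 1 of the 22180 genes measured on the arrays. It was taken by its exact symbol, which a single probe carried, and it was chosen because its intensity in mouse embryonic stem cells (mESC) was low under CHIR99021 and high again once PD0325901 was added. Its levels in these cells are therefore given as a description, without a test. The cells were mESC of the EB3 line, kept in N2B27 medium with LIF and BMP4, and epiblast-like cells (EpiLC), a model of the early post-implantation epiblast, induced from EB3 cells for 2 days in N2B27 with Activin A at 20 ng/ml and bFGF at 12 ng/ml. Each state was left untreated, given 3 µM CHIR99021 for 24 hours (CHIR, which blocks the kinase GSK3 and so activates Wnt/beta-catenin signalling), or given 3 µM CHIR99021 with 1 µM PD0325901 for 24 hours (PD, an inhibitor of MEK, the kinase upstream of ERK). PD alone was not among the treatments, so all values with PD are values on top of CHIR. Each of the 6 groups was 1 array of 1 culture of the same line, so a difference between groups has no replicate error, and precision is limited by having 6 arrays.

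SPI-C belongs to the same branch of the Ets family as PU.1, the product of Spi1, and SPI-B, the product of Spib, which are regulators of myeloid and lymphoid cells. It is best known for the development of red pulp macrophages of the spleen, which recycle iron from old red blood cells, and haem induces it in monocytes. It is also expressed in naive mouse embryonic stem cells, most of all under combined inhibition of GSK3 and MEK, where it has been linked to the betaine branch of one-carbon metabolism, the pathway that supplies methyl groups.

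The 250 bases upstream of the annotated start of Spic are shown as the promoter of the gene whose RNA was measured. They span chr10:88683024-88683273 of GRCm38.p6 on the minus strand, as given by RefSeq, and are written 5′ to 3′ in the direction of the gene. Capitals mark the only match to the Ets core GGAA on either strand, here read as TTCC from 46 bases before the start.

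Spic: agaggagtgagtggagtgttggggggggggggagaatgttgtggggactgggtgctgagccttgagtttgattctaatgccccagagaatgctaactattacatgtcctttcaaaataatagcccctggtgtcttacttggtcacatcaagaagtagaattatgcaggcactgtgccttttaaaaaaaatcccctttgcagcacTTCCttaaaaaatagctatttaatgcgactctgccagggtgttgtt

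That core was present in 93.4% of 32851 upstream windows of the same length, so most genes share it. Neither the TCF/LEF core CTTTGA (13.8% of windows), nor the nuclear receptor core AGGTCA (14.0%), nor the STAT palindrome TTCNNNGAA (7.02%) was found on either strand. These are matches of letters, and no binding was measured in this study.

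In mESC the Spic intensity was 785 in untreated cells, 91.5 under CHIR and 1638 under CHIR with PD. In EpiLC it was 72.4 in untreated cells, 77.1 under CHIR and 55.9 under CHIR with PD. Untreated mESC and mESC under both inhibitors were the high arrays, whereas CHIR-treated mESC lay close to the EpiLC arrays, although still above the highest of them. Ordered by level, CHIR with PD in mESC came first, followed by untreated mESC, CHIR-treated mESC, CHIR-treated EpiLC, untreated EpiLC and EpiLC with both inhibitors. With 1 array per group no spread is available for this order, and the last 4 arrays lay within 55.9 and 91.5. In such bulk samples, fewer cells that express the gene and less RNA per cell cannot be told apart.

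**Figure D1:**
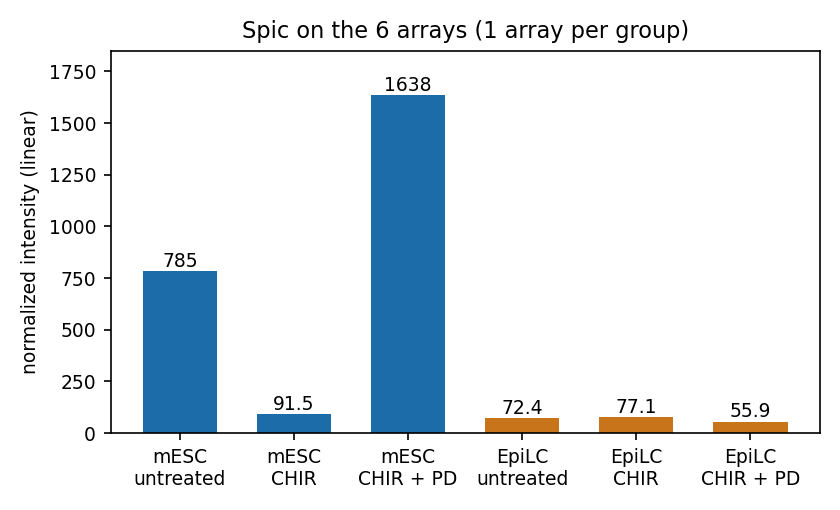
Normalized intensity of Spic (linear axis from 0) on each of the 6 arrays, 1 bar per array, with mESC in blue and EpiLC in orange. The bars of untreated mESC (785) and of mESC with CHIR and PD (1638) stand above the other 4, which lie between 55.9 and 91.5.

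Within mESC these intensities made Spic 8.59-fold lower under CHIR than in untreated cells, a log2 difference of -3.10. This was the lowest of the 22180 differences in that comparison, in which 0.153% of genes were at least 2-fold lower. Under CHIR with PD it was 17.9-fold higher than under CHIR alone, a log2 difference of 4.16 and the highest of all genes, with 0.252% of genes at least 2-fold higher. Against untreated mESC the combination left Spic 2.09-fold higher (log2 difference 1.06), the 111th highest value, where 0.618% of genes were at least 2-fold higher. The first and second of these differences share the CHIR array, and the gene was picked by them, so their ranks describe the choice and support nothing further. Over the 3 mESC arrays Spic had the widest range of any gene measured.

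In EpiLC the same treatments were followed by small differences. CHIR-treated EpiLC were 1.07-fold higher than untreated EpiLC in Spic (log2 difference 0.09) and ranked 7198 from the highest of all genes. Addition of PD to CHIR left it 1.38-fold lower (log2 difference -0.46), and the combination was at a log2 difference of -0.37 from untreated EpiLC. None of the 3 differences reached 2-fold. Of all genes, 2.7% did so under CHIR, 2.05% upon addition of PD and 4.11% with the combination. Between the 3 EpiLC arrays the highest intensity was 1.38 times the lowest, the 6142nd widest range of 22180 genes. The EpiLC intensities lie toward the low end of the scale, whose lowest value is 16 on every array, so differences there are compressed, and no detection call was used to say whether Spic was above background in EpiLC.

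Between the states, untreated EpiLC had 10.8-fold less Spic signal than untreated mESC (log2 difference -3.44). It was the 25th lowest of all genes, and 2.3% of genes were at least 2-fold lower. Under CHIR the states were 1.19-fold apart (log2 difference -0.25), rank 5025 from the lowest. Under CHIR with PD, with an EpiLC array on which the epiblast marker Fgf5 was low (39.4), they were 29.3-fold apart (log2 difference -4.87), the fifth lowest value, with 3.11% of genes at least 2-fold lower. The distance between the states in Spic was thus small under CHIR and wide in the other pairs of arrays.

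The low point of Spic under CHIR was set beside that of every other gene. For each gene, the lower of its log2 intensities in untreated mESC and in mESC with both inhibitors was taken, and its log2 intensity in CHIR-treated mESC was subtracted. This depth was 3.10 for Spic and at least 1, that is 2-fold, in 2 of 22180 genes (0.00902%). That count depended on the scale, with 29 genes when the lowest intensity was set to 4 in place of 16 and 1, Spic, when it was set to 64. At 4 the next deepest were Gm4224 with 1.63 and Prss3, a trypsin gene, with 1.56. The other was Calcoco2, which encodes an autophagy receptor. It was at 363 in untreated mESC, 164 under CHIR and 1412 under CHIR with PD, a depth of 1.15. Next came Lrp2, the endocytic receptor megalin, with a depth of 0.95, and Fgfr2, a receptor for fibroblast growth factors, with 0.95. Serping1, which encodes the inhibitor of complement C1, had a depth of 0.91. Pramel30, a gene of the large Prame family whose members may share probe signal, followed with 0.77, and the homeobox gene Hesx1 with 0.74. Mocos, which encodes molybdenum cofactor sulfurase, and the kallikrein gene Klk1 had depths of 0.73 and 0.72. The opposite shape, at least 2-fold higher under CHIR than in both other mESC arrays, was found in 8 genes (0.0361%). In that shape the mesendoderm gene Mixl1, named here after its values were seen, had the largest value, 3.26. In EpiLC 23 genes (0.104%) had a depth of at least 2-fold and 121 (0.546%) the opposite shape. Spic was in neither set, with a depth of -0.46, while Lrp2 had a depth of 2.73 there.

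**Figure D2:**
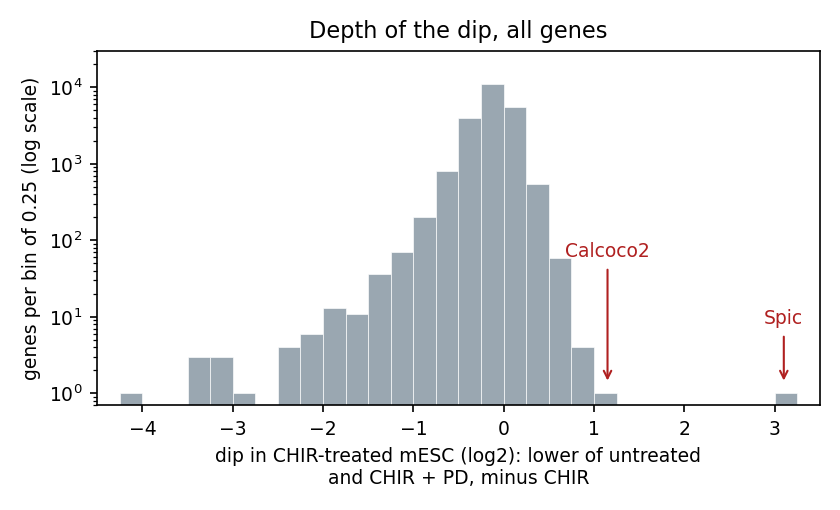
Number of genes (log axis) by the depth of the low point in CHIR-treated mESC, that is the lower log2 intensity of untreated and CHIR with PD minus that under CHIR, in bins of 0.25. Spic at 3.10 stands beyond Calcoco2 at 1.15, and no other gene reaches 1.

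Over all 6 arrays, likeness to Spic was measured as Pearson's r of log2 intensities among the 701 other genes that varied at least 4-fold and were not predicted, clone or small RNA symbols. The 6 arrays share the cell line and the normalization, and r is given as a description. Of these genes 3 had an r of at least 0.9 and 37 of at least 0.8. Hesx1, which encodes a homeobox repressor of forebrain and pituitary development, was the most like Spic (r = 0.96). Its intensities were 106, 63.4 and 240.0 in mESC that were untreated, with CHIR and with both inhibitors, and between 34.1 and 40.6 in EpiLC. Hesx1 placed the 6 arrays in the same order as Spic (Spearman rho = 1.00), over a narrower range. Pga5, a pepsinogen gene, had an r of 0.95 and intensities of 85.1, 59.2 and 202 in mESC. Calcoco2 came next (r = 0.94) and was between 38.4 and 45.1 in EpiLC.

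**Figure D3:**
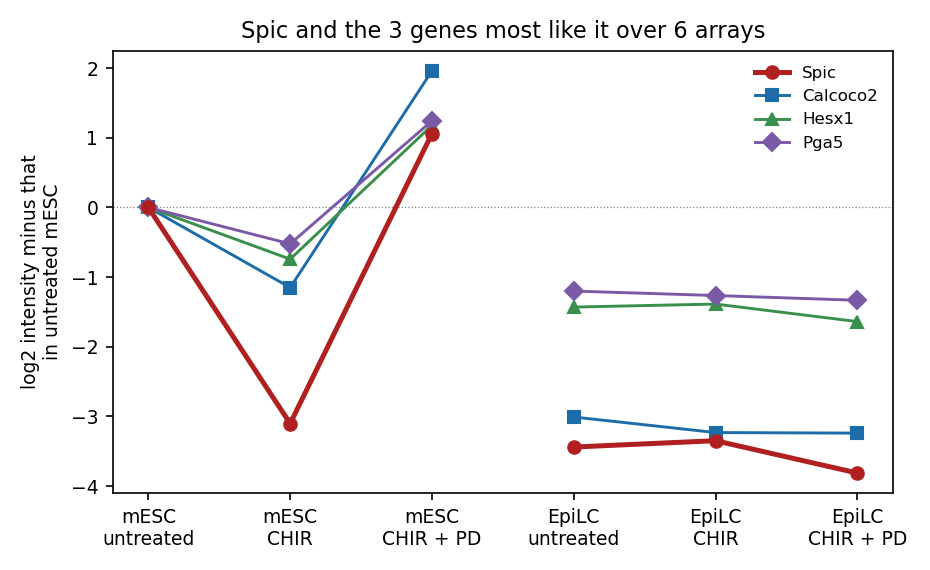
Log2 intensity minus that in untreated mESC for Spic and the 3 genes most like it (Calcoco2, Hesx1 and Pga5) on the 6 arrays, 1 point per array, lines joining arrays of 1 state. All 4 genes are lowest of the mESC arrays under CHIR and highest under CHIR with PD, and Spic has the lowest point of the 4 under CHIR (-3.10).

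The other 7 of the 10 most like Spic had r between 0.86 and 0.90. They were Oas1g, of the interferon-induced oligoadenylate synthetases, Itpka, an inositol trisphosphate kinase gene, Prss35, Dppa3, a marker of naive cells and germ cells, Xaf1, Plac1, a placental gene, and Mok. Oas1g belongs to a family of similar genes that may share probe signal. Each of the 10 was lower under CHIR than in untreated mESC, by a log2 difference from -1.15 in Calcoco2 to -0.08 in Xaf1. Each was also higher under CHIR with PD than under CHIR, from 0.85 in Dppa3 to 3.11 in Calcoco2. These signs follow in part from the choice by r. The set depended on single arrays and on the scale. Of the 10 genes, 1 remained among the 10 most like without the array of CHIR-treated mESC (Oas1g), 1 without that of mESC with CHIR and PD (Hesx1) and 4 without that of untreated mESC. Without 1 EpiLC array, 7 or 8 remained. By Spearman's rho 3 remained, namely Calcoco2, Hesx1 and Oas1g. With the lowest intensity set to 4 instead of 16, another set of 3 did, namely Calcoco2, Hesx1 and Pga5. With it set to 64, 344 genes varied at least 4-fold, and Calcoco2 was the only one of the 10 to remain.

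The 5 genes least like Spic ran the other way. Lhpp, which encodes a phosphatase, had an r of -0.94, the Wnt ligand gene Wnt8a -0.92, and Ppp4r4, a subunit gene of protein phosphatase 4, -0.91. Pmaip1, which encodes the pro-apoptotic protein Noxa, had an r of -0.90 and Lef1, a transcription factor gene of the Wnt pathway, -0.87. Wnt8a was at 73.0, 138 and 45.3 in mESC that were untreated, with CHIR and with both inhibitors, and between 234 and 525 in EpiLC. Lef1 was at 435, 627 and 159 in mESC, so it was high where Spic was low among these arrays.

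Among the closest relatives of Spic the arrays differed little. Spi1 was between 97.1 and 108 in mESC and between 104 and 115 in EpiLC. Spib was between 30.8 and 35.1 in mESC and between 34.0 and 47.5 in EpiLC. The log2 differences in mESC for CHIR against untreated cells were -0.16 for Spi1 and -0.19 for Spib. For CHIR with PD against CHIR they were 0.15 and 0.01. Neither gene thus came near the differences of Spic, which was chosen by those differences. Spib lay below the lower quartile of each mESC array (from 34.7 to 35.2). It was thus toward the lowest intensity of 16, where a fall like that of Spic could not show.

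Of 24 other Ets family genes measured, 0 were at least 2-fold apart between CHIR-treated and untreated mESC, where 0.338% of all genes were. Their median log2 difference was 0.03, against -0.00 over all genes. For CHIR with PD against CHIR in mESC, 1 was higher and 4 were lower by 2-fold or more, against 0.252% and 0.523% of all genes. The higher one was Elf3, an epithelial Ets factor gene, at 319, 265 and 669.9 in untreated, CHIR-treated and doubly treated mESC. The lower ones were Etv4, Etv1, Etv5 and Elk3. Etv4, a target of ERK signalling, was at 158 and 262 without PD and at 26.5 with it in mESC. In EpiLC it was at 211 and 226 without PD and at 23.6 with it. Etv5 was at 559, 458 and 167 in mESC. These genes were therefore low on the array where Spic was highest.

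**Figure D4:**
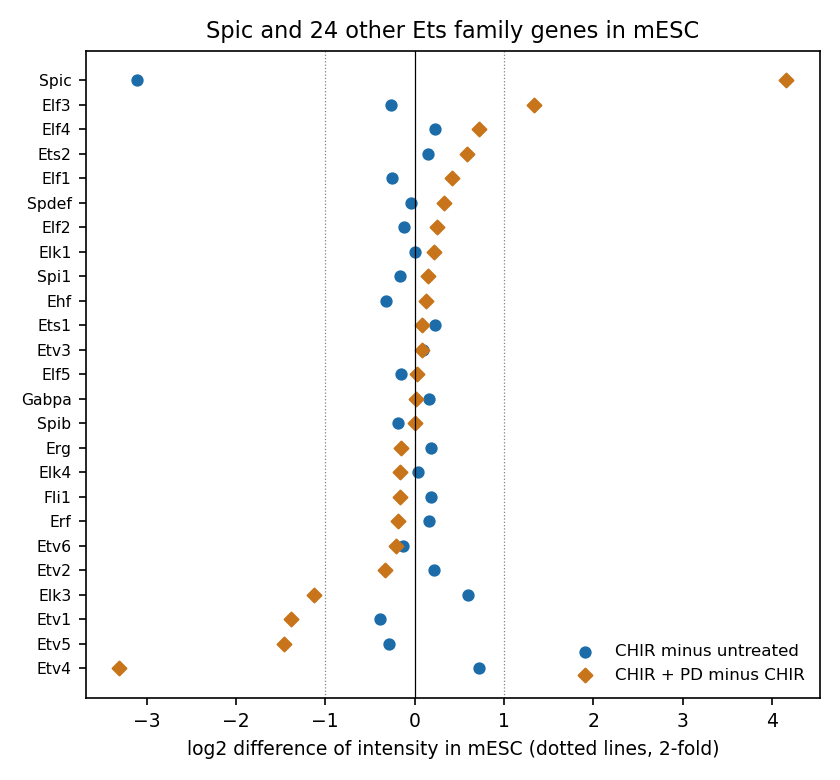
Log2 differences of intensity in mESC for Spic and 24 other Ets family genes, with CHIR minus untreated as blue circles and CHIR with PD minus CHIR as orange diamonds, each from 1 pair of arrays. Spic is at -3.10 and 4.16, Elf3 is the only other gene above 1 in the second comparison, and Etv4 is the lowest there at -3.30.

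Known markers of state and treatment were as labelled on the untreated arrays, but not all of them on EpiLC with both inhibitors. Of 17 naive pluripotency genes, the untreated EpiLC array was at least 2-fold below the untreated mESC array in 16 (2.3% of all genes). Fgf5, which marks epiblast cells after implantation, was at 36.0 in the latter and 1258 in the former. On EpiLC with both inhibitors, Fgf5 was at 39.4, close to untreated mESC, and Nanog, a pluripotency factor gene, was at 2498, above its 2118 in untreated mESC. Esrrb and Tfcp2l1, of the naive network, were at 33.7 and 151 on that array, below their lowest mESC values of 357 and 747. On the matched array, mESC with both inhibitors, Fgf5 was at 19.9. Against that array, EpiLC with both inhibitors was at least 2-fold lower in 14 of 17 naive genes (3.11% of all genes). The median log2 difference of 14 formative epiblast genes was 1.00, against -0.03 over all genes. The library labelled EpiLC with CHIR and PD was thus close to untreated mESC in Fgf5 and Nanog, but below mESC in most naive genes. Wnt targets were higher under CHIR in mESC, with Axin2, a feedback gene of the pathway, at 182 and 368, and Spry4, a feedback inhibitor of ERK signalling, was at 608 under CHIR and 36.2 once PD was added. The array medians ran from 60.5 to 65.2.

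The naive genes were low in EpiLC, as Spic was, and those with a low point under CHIR had shallow ones. Their median log2 difference between untreated EpiLC and untreated mESC was -3.39, beside -3.44 for Spic and 0.00 over all genes. For CHIR against untreated mESC 0 of 17 were at least 2-fold apart, with a median of 0.03. That count is near the 0.338% of all genes. Esrrb, an orphan nuclear receptor gene of the naive network, was at 357, 467 and 524 in untreated, CHIR-treated and doubly treated mESC. Tfcp2l1, another naive factor gene, was at 747, 1213 and 1884. Both were thus higher under CHIR, where Spic was lowest. For CHIR with PD against CHIR in mESC, 13 of 17 naive genes were higher (median 0.24, against -0.01 over all genes). At least 2-fold higher were 0, near the 0.252% of all genes. The median depth of the low point under CHIR was -0.08 in the list, near the -0.11 over all genes. Depth thus does not set the list apart from other genes. The deepest were Dppa3 with 0.52, Tet2, which encodes an enzyme of DNA demethylation, with 0.47, and Fgf4, a growth factor gene, with 0.31. Tet2 was at 487, 352 and 493 in mESC and between 46.6 and 73.1 in EpiLC.

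The median formative gene was lower under CHIR, as Spic was, but was lower again with PD. Their median log2 difference in mESC was -0.54 for CHIR against untreated cells, and -0.51 for CHIR with PD against CHIR. In the latter, 0 of 14 were at least 2-fold higher, near the 0.252% of all genes, and 3 were lower (0.523% of all genes). Otx2, a transcription factor gene of the formative epiblast, was at 410.5, 56.2 and 40.2 in mESC. It was the one gene of that list at least 2-fold lower under CHIR in mESC, against 0.153% of all genes.

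ERK feedback genes and Wnt targets, which report on the inhibitors, differed from Spic in their own ways. Of 19 ERK feedback genes, 0 were at least 2-fold apart between CHIR-treated and untreated mESC (median -0.01), where 0.338% of all genes were. With PD added, 10 were lower by 2-fold or more (0.523% of all genes) and 0 were higher (0.252%), with a median of -1.31. Of 15 Wnt feedback and target genes, 6 were at least 2-fold higher under CHIR in mESC, against 0.185% of all genes, and 0 lower (median 0.54). Sp5, a transcription factor gene induced by Wnt signalling, was at 69.8, 239 and 221 in untreated, CHIR-treated and doubly treated mESC. It stayed high with PD, on the array where Spic was highest. Dkk1, which encodes a secreted Wnt inhibitor, was at 124, 355 and 619.8 in the same order.

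**Figure D5:**
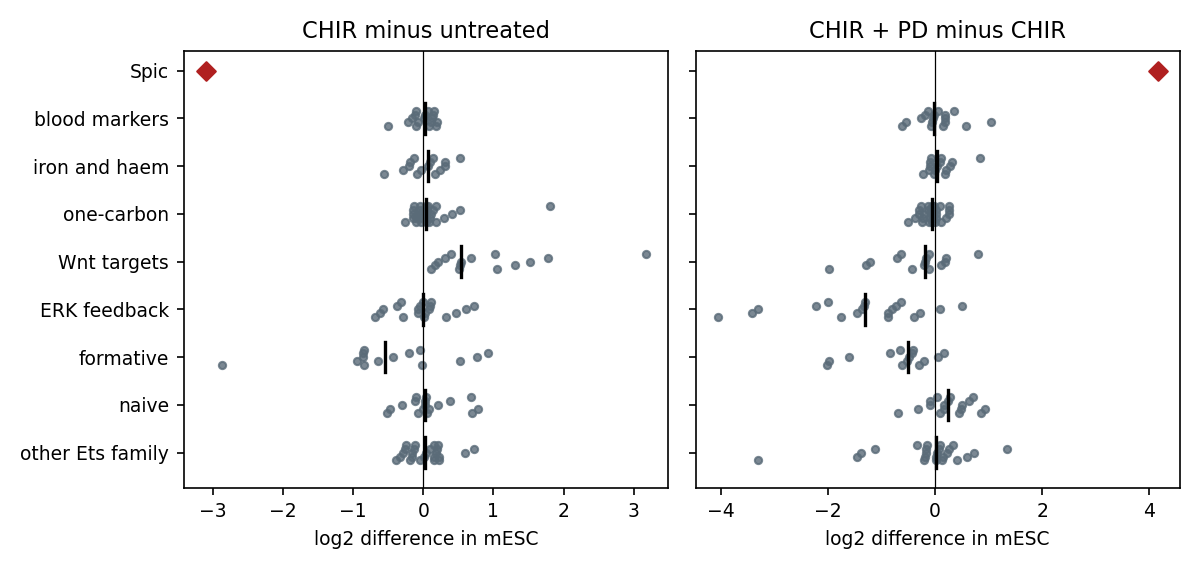
Log2 differences in mESC for CHIR minus untreated (left) and CHIR with PD minus CHIR (right), with 1 point per gene, black bars at list medians and Spic as the red diamond. Spic (-3.10 on the left, 4.16 on the right) was chosen by these differences and is the extreme of all genes in both. No gene of the 8 lists could therefore lie beyond it.

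Genes of one-carbon metabolism were mostly near the background in mESC. Of 30 measured, 1 was at least 2-fold higher and 0 lower under CHIR against untreated mESC (0.185% and 0.153% of all genes). Once PD was added 0 were at least 2-fold apart (0.775% of all genes), and the medians were 0.04 and -0.06. The counts of 0 are what the background alone would give. The one that was higher was Dmgdh, which encodes dimethylglycine dehydrogenase of the betaine branch. It was at 24.6, 85.9 and 99.1 in untreated, CHIR-treated and doubly treated mESC and at 23.4, 93.5 and 52.7 in the same order in EpiLC. Dmgdh was thus low in both untreated cultures and higher in all 4 with CHIR. Its untreated values lie toward the lowest intensity of 16, below the lower quartiles of those arrays (35.2 in mESC, 34.5 in EpiLC). A link between Dmgdh and Spic was not tested. Bhmt, which encodes betaine-homocysteine methyltransferase, was between 134 and 142 in mESC. Its relative Bhmt2 was at 30.8, 44.4 and 53.0 in mESC and between 27.7 and 49.1 in EpiLC. All treatments lasted 24 hours.

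Genes of iron and haem handling, known from macrophages that depend on Spic, were near the background in mESC. Of 15 measured, 0 were at least 2-fold apart in either mESC comparison, where 0.338% and 0.775% of all genes were, so the count does not set them apart from other genes. Slc40a1, which encodes the iron exporter ferroportin, was at 167, 137 and 243 in untreated, CHIR-treated and doubly treated mESC. Those intensities have the order of Spic, with a depth of 0.29 against 3.10. By any amount, 8 of the list were higher and 7 lower under CHIR than in untreated mESC. Tfrc, also of the list, was at 639, 915 and 1139 in the same order, so it was higher under CHIR. In EpiLC, where Spic was low, Slc40a1 was at 141, 72.5 and 154. Hmox1, which encodes haem oxygenase, was between 665 and 756 in mESC and between 588 and 630.1 in EpiLC. The haemoglobin scavenger receptor gene Cd163 was between 76.9 and 82.0 on the 6 arrays.

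Markers of macrophages and other blood cells, in which Spic is also expressed, had similar summed levels in the 3 mESC cultures. Of 17 measured, 0 were at least 2-fold apart between CHIR-treated and untreated mESC (0.338% of all genes). With PD added 1 was higher (0.252% of all genes), Lyz2, from 17.1 to 35.4. Their summed intensity in mESC was 1669 in untreated cells, 1715 under CHIR and 1717 under CHIR with PD, and it was between 892 and 900.2 in EpiLC. Most of the gap between the states lay in Laptm5, between 618 and 657 in mESC and between 26.5 and 44.5 in EpiLC, and in Cd68. Without these 2 lysosomal membrane protein genes, singled out after their values were seen, the sum was between 702 and 710.1 in mESC and between 654 and 718 in EpiLC. Ptprc, the common leukocyte antigen gene, was between 29.7 and 42.6 on the 6 arrays and Csf1r, the receptor gene of macrophages, between 44.8 and 54.6. The scale has no 0, so none of the markers can be listed as absent. Of the other lists in CHIR-treated against untreated mESC, 0 of 12 primitive endoderm genes and 0 of 11 fibroblast genes were at least 2-fold apart, and 1 of 10 genes of 2-cell-like cells was lower, Zscan4c, whose near-identical copies may share its signal. Once PD was added, 1 fibroblast gene was at least 2-fold higher and 0 primitive endoderm or 2-cell-like genes were apart. These counts stand beside the 0.338% and 0.775% of all genes. The summed intensity of the fibroblast markers was 2097, 2308 and 2451 in untreated, CHIR-treated and doubly treated mESC. Vim, the vimentin gene, made up most of the first of these sums. Without it, a choice made after the values were seen, the other 10 markers summed to 916, 801 and 1255, lowest under CHIR as Spic was. In EpiLC, where Spic was between 55.9 and 77.1, the same 10 markers summed to 1536, 1091 and 3142. In mESC, Acta2, a smooth muscle actin gene, was at 317, 246 and 427 in untreated, CHIR-treated and doubly treated cells. Tagln, another gene of contractile cells, was at 169, 154 and 408 in the same mESC cultures. Among the 11 fibroblast markers the deepest low point in CHIR-treated mESC was that of Acta2, with 0.36 against 3.10 for Spic. The median depth of the 11 was 0.04, against -0.11 over all genes. The part of such cells in the level of Spic was not tested.

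The measured genes that lie nearest to Spic on its chromosome did not share its differences. They were Mybpc1, Chpt1 and Gnptab on one side and Gm4925, Arl1 and Utp20 on the other, in the order of the RefSeq gene table. For CHIR against untreated mESC their log2 differences ran from -0.10 in Gnptab to 0.61 in Gm4925. For CHIR with PD against CHIR they ran from -0.37 in Gm4925 to 0.32 in Chpt1. Between the untreated states they ran from -0.06 in Mybpc1 to 0.42 in Gnptab, so no neighbour was 2-fold apart in these comparisons. Most genes were not either. In the mESC comparisons 0.338% and 0.775% of all genes were at least 2-fold apart, and between untreated states 835 of 22180 were. The count therefore does not set the neighbours apart from other genes.

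The genes around Spic, but not Spic itself, were also tested over both states in 1 additive model of state and treatment (limma, two-sided, adjusted over all genes). Between the states 8.3% of all genes passed, 4.15% in each direction. Of the naive list 15 of 17 fell in EpiLC, among them Dppa3, with a log2 change of -1.82 (SE 0.16, limma adjusted p = 0.005). Dppa3 is also 1 of the 10 genes most like Spic on these same arrays, so its fall follows in part from that choice. Of the 24 other Ets genes 1 rose and 1 fell, near the 4.15% of all genes in each direction. Etv2 rose by 0.71 (SE 0.11, limma adjusted p = 0.0204), and Elf3 fell by 1.67 (SE 0.26, limma adjusted p = 0.0201). Etv2 no longer passed without any 1 of the 6 arrays (limma adjusted p from 0.0504 to 0.0721). Of the 30 one-carbon genes 1 rose and 1 fell, also near the share of all genes. Mthfd2l, a folate enzyme gene, rose by 1.15 (SE 0.14, limma adjusted p = 0.0102). Amt, of the glycine cleavage system, fell by 0.79 (SE 0.14, limma adjusted p = 0.0289), but not without any 1 of the 4 arrays with CHIR (0.076 or 0.112). Of the iron list 0 of 15 passed. For PD added to CHIR 4 genes passed (0.018%), all ERK feedback genes that fell. Etv4 was among them and fell by 3.28 (SE 0.19, limma adjusted p = 0.0205), though without the array of EpiLC with both inhibitors the limma adjusted p was 0.0885. For both inhibitors against untreated cells 6 genes passed (0.0271%), and all of them fell. With trend and robust moderation 28 rose and 25 fell. For CHIR against untreated cells 0 genes passed in limma, with 1613 at an unadjusted p under 0.05, 0 with trend and robust moderation and 0 without moderation. The spread in this model is the departure from equal effects in both states over 2 residual degrees of freedom. A gene with a response in mESC alone, as the values of Spic describe, receives a large error in it. Between the states 1841 genes passed, but 945 without 1 of the CHIR-treated arrays and 1209 without 1 of those with both inhibitors. For PD on top of CHIR the number was 54 without CHIR-treated mESC and 71 without mESC under both inhibitors, 49 of which rose and 22 fell. For CHIR it was 52 without CHIR-treated mESC. For both inhibitors against untreated cells it was 152 without doubly treated mESC, of which 109 rose and 43 fell, 48 without 1 of the CHIR-treated arrays and 0 without 1 of the untreated arrays.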

How the data were processed

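Total RNA of 6 cultures was measured on Affymetrix Mouse Gene 2.0 ST arrays, 1 per group. The deposited values are linear intensities on 1 common scale, analysed by the authors with GeneSpring GX 11.5 per the series' design text; how probe sets were summarized and arrays normalized is not given in the sources used here. No value lies below 16, which compresses differences of dim genes. Of 33793 probes, 23521 had 1 gene symbol in the platform annotation, 1814 had several and 8458 had none; only the first were kept, and the mean log2 intensity per symbol was taken (22180 genes).

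Differences of single arrays are sizes only, counted from 2-fold. An additive model of state and treatment was fitted with limma 3.58.1 in R 4.3.3 (threshold 0.05 after Benjamini-Hochberg adjustment). Named genes were Spic, Spi1, Spib, the 10 most and 5 least like Spic, the 8 deepest low points in CHIR-treated mESC, up to 4 members of each list per main comparison, 3 neighbours on each side, and markers that check labels. Elk3, Bhmt, Amt, Tet2, Nanog, Cd163, Ptprc, Csf1r, Gm4224, Prss3 and Mixl1 lie outside that rule and were named with their values known. Members and lists were chosen with earlier results of these data known. Alternatives covered the constant in the intensities, scaling, dim genes, probe choice, likeness measure, moderation and each array left out. Upstream sequence is from RefSeq (GRCm38.p6). The labels do not say whether cultures were independent.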

Additional observations from a re-analysis of the deposited data

Results flagged for a closer look

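The log2 differences of Spic had opposite signs in mESC and EpiLC in all 3 treatment comparisons. The gene was chosen by its mESC values, so the gaps in part restate that choice, and the last comparison is the sum of the other two. For CHIR against untreated cells the log2 difference was -3.10 in mESC and 0.09 in EpiLC, a gap of 3.19. For PD added to CHIR it was 4.16 in mESC and -0.46 in EpiLC, a gap of -4.63. For both inhibitors against untreated cells it was 1.06 in mESC and -0.37 in EpiLC, a gap of -1.43. Each state is 1 array per treatment, so the gap was not tested, and none of the EpiLC values reached 2-fold. The EpiLC sign for CHIR rests on intensities of 72.4 and 77.1.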

How the results depend on the processing

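Spic had the lowest value for CHIR, the highest for PD added to CHIR and the deepest low point under each alternative constant, scaling, filter and probe rule tried. With the lowest intensity set to 4 and to 64, its log2 difference in mESC was -3.28 and -2.58 for CHIR and 4.35 and 3.60 for PD added to CHIR. Between untreated states it was -3.68 and -2.79, and between the states under both inhibitors -5.21 and -4.02. In EpiLC it was -0.27 for PD added to CHIR and -0.21 for both inhibitors with 64. Low points of at least 2-fold were found in 29 genes with 4 and in 1 with 64, alternatives chosen after seeing the data. Genes at least 2-fold apart numbered, with 4 and with 64, 300 and 27 for CHIR in mESC, 1013 and 343 for CHIR in EpiLC, 425 and 73 for PD added in mESC, 894 and 255 for PD added in EpiLC, and 681 and 157 for both inhibitors in mESC. Between untreated states 447 remained apart with 64. Of the 10 genes most like Spic, 3 stayed in the set with 4, 1 with 64 and 3 by Spearman's rho, and 1 to 8 with an array left out. In limma, 1841 genes differed between the states, 1016 with 4, 0 without moderation and 945 to 1276 with an array left out. For PD added to CHIR 4 genes became 1 with 64, 7 with trend and robust moderation and 0 without moderation, and 3 to 71 with an array left out. For both inhibitors 6 genes became 1 with 4, 1 with 64, 53 with trend and robust moderation and 0 without moderation, and 0 to 152 with an array left out. For CHIR 0 genes became 0 to 52 with an array left out. With an array left out, its treatment is represented by the array of 1 state only, so counts for that treatment are not for the same comparison. The cause of these shifts was not tested. Of 117 differences of named genes that were at least 2-fold, 117 still were with 4, 76 with 64 and 116 after quantile normalization. Among genes named from limma, Elf3 lost its call with 4, Amt with 4, and Etv4 with 4 and with 64, and each of the 6 did without moderation. No paired analysis was possible because the labels carry no replicate numbers to pair by, although the limma model compares the states within each treatment. Signal over background cannot be given without detection calls, which limits what can be said of Spic in EpiLC.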
